A study of Ovis aries with 15 samples.

Results

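The renin-angiotensin system was followed at the mRNA level in sheep kidney through 6 genes, chosen by name: AGT, ACE, AGTR1, ANPEP, ENPEP and MME. All 6 were present among the 25592 genes of the expression table, and 5 of them passed the filter on low values that 13162 genes passed. RNA from a portion of the kidney was sequenced from male Dorper × Small-tailed Han lambs aged 4 months that were fed one of 3 diets for 21 d. The CON group received the total mixed ration alone, the AFB1 group the same ration with aflatoxin B1 (a mould toxin that the liver turns into a reactive epoxide) at 500 μg/kg DM, and the AFB1_CUR group that toxin dose together with curcumin (the yellow polyphenol of turmeric) at 800 mg/kg DM. No group received curcumin without the toxin, and no genotype was altered. Each group had 6 sheep and 5 libraries, each from a sheep of its own as far as the sources tell, and whether that portion was cortex or medulla was not given in the sources used here. Sheep shared pens, and which libraries came from pen mates was not given, so all tests treat each sheep as independent.

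Angiotensinogen, the product of AGT, is the source of angiotensin I, and angiotensin-converting enzyme, the product of ACE, trims that to angiotensin II, which acts on vessels and tubules mainly through the type 1 receptor AGTR1. The remaining 3 members are membrane peptidases of the proximal tubule brush border that shorten angiotensins further: ENPEP (aminopeptidase A) converts angiotensin II to angiotensin III, ANPEP (aminopeptidase N) converts angiotensin III to angiotensin IV, and MME (neprilysin) can cut angiotensin I to angiotensin-(1-7). In the kidney these enzymes are abundant on tubule cells, whereas the liver is the main source of circulating angiotensinogen.

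ANPEP was the 1 member called of 5 tested, for AFB1 against CON (where 1.76% of all tested genes were called) and for AFB1_CUR against CON (1.63%). It was 2.05-fold lower in the AFB1 group and 2.21-fold lower in the AFB1_CUR group than in CON, past the threshold by unadjusted p and not by adjusted p, and the first call was lost without CON replicate 5, AFB1 replicate 2 or AFB1 replicate 4. The difference between AFB1_CUR and AFB1 was small beside its error. ACE, AGTR1, ENPEP and MME did not pass the test in any of the 3 comparisons, and AGT was read at low counts in the 14 libraries with a kidney profile.

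The library labelled AFB1 replicate 1 stood apart before any comparison. Its score for 15 hepatocyte markers (the mean of log2(FPKM + 1), where FPKM stands for fragments scaled to transcript length and library depth) was 10.9, against 1.36 to 3.00 in the other 14 libraries. Its scores were low for 9 proximal tubule markers (1.58, against 6.44 to 8.27) and for 9 markers of the loop of Henle and collecting duct (0.54, against 5.45 to 6.53). The members followed the same division. AGT reached 411 FPKM (141087 counts) in it, MME had a count of 0 where the other libraries held 9434 to 42330, and AGTR1 stood at 14.9 FPKM, 3.27 times the median of the others. ACE, at 0.233 FPKM, and ENPEP, at 2.62 FPKM, lay far below the other libraries, and ANPEP, at 29.4 FPKM, lay just below their lowest value of 34.7 FPKM. All comparisons therefore used 14 libraries (5 CON, 4 AFB1, 5 AFB1_CUR), and values with all 15 are given where a call on a member or a pathway gene differs. The 14 libraries held 50255295 to 68747047 counts each, and none of the 9 proximal tubule markers was at 0 in all of them.

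**Figure D1:**
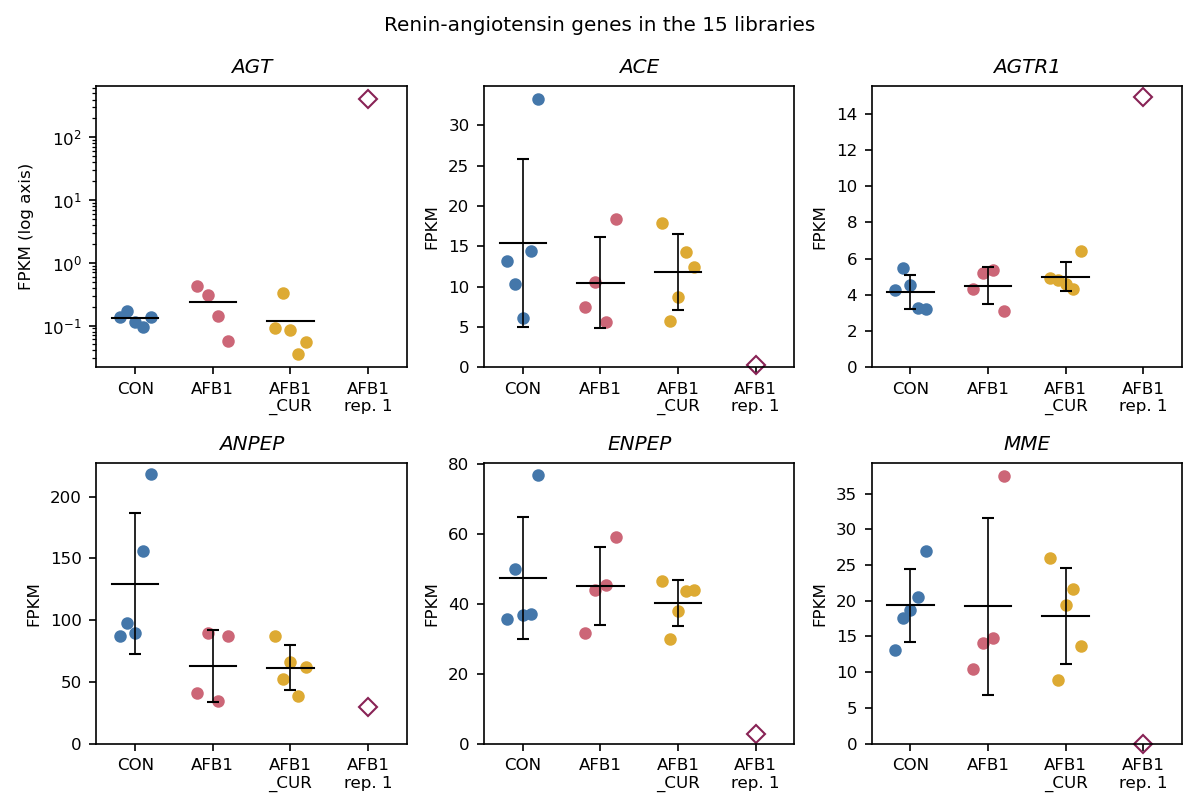
FPKM of the 6 members by diet, 1 panel per gene. Each point is a library, the bars (all panels but AGT, which has a log axis and only the mean marked) give the mean with its SD, and the diamond is the library labelled AFB1 replicate 1, which enters no mean. ANPEP is highest in 2 CON libraries (156 and 218 FPKM), and the diamond lies above the other libraries for AGT and AGTR1 and below them for ACE, ANPEP, ENPEP and MME.

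Compared per transcript length, the 5 expressed members spanned a wide range of levels. In CON the mean was 129.7 FPKM for ANPEP, 47.2 for ENPEP, 19.3 for MME, 15.4 for ACE, 4.16 for AGTR1 and 0.130 for AGT. Neighbours in this order were not equally well separated. ENPEP exceeded MME, ACE exceeded AGTR1 and AGTR1 exceeded AGT within each of 14 libraries, while ANPEP exceeded ENPEP in 12 of 14 and MME exceeded ACE in 12 of 14. The ratio of ANPEP to ENPEP varied from 0.766 to 4.21 between libraries, and the ratio of ENPEP to MME from 1.58 to 3.35. The transcript length implied by FPKM and counts was long for MME (18.7 kb, with 36 annotated transcripts) beside ANPEP (3.7 kb) and ENPEP (4.0 kb), so the MME level depends on the transcript models used.

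AGT (chromosome 25, 44655064 to 44666620, plus strand) encodes the angiotensin precursor. The positions given here are those of the expression table, which match a RefSeq annotation of ARS-UI_Ramb_v3.0 for 24848 of 24947 genes paired by symbol. It was read at 0.139, 0.170, 0.114, 0.0938 and 0.135 FPKM in CON replicates 1 to 5. In AFB1 replicates 2 to 5 it was at 0.433, 0.304, 0.141 and 0.0570 FPKM, and in AFB1_CUR replicates 1 to 5 at 0.0922, 0.325, 0.0859, 0.0347 and 0.0545 FPKM. The highest values were those of AFB1 replicates 2 and 3 and AFB1_CUR replicate 2, and the ranges of the 3 groups overlapped. These levels rest on 12 to 143 counts per library and did not pass the filter. In a fit without the filter the log2 fold change was 0.77 (SE 0.57, unadjusted p = 0.196 by edgeR's quasi-likelihood test) for AFB1 against CON and -1.07 (SE 0.57, unadjusted p = 0.0805) for AFB1_CUR against AFB1, so no difference was detected. Between AFB1_CUR and CON it was -0.30 (unadjusted p = 0.589). The SD of the FPKM was 22.0% of the mean in CON, 71.7% in AFB1 and 99.4% in AFB1_CUR.

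Because angiotensinogen is a liver product, AGT was set beside albumin (ALB), an abundant hepatocyte transcript. The library labelled AFB1 replicate 1 held 3190765 ALB counts, which is 4.42 AGT counts per 100 ALB counts. Among the other 14 libraries, AFB1 replicate 2 had 143 AGT and 2846 ALB counts (5.02 per 100) and AFB1 replicate 3 had 119 AGT and 1656 ALB counts (7.19 per 100), and these were the highest ALB counts of the 14. AFB1_CUR replicate 2, with 113 AGT counts, held only 102 ALB counts, and in AFB1 replicates 4 and 5 the ALB counts (26 and 6) were below the AGT counts (48 and 22). The ratio was thus near that of the liver-like library in 2 of the 3 libraries with the most AGT, and above 10 per 100 in the other 11 libraries where ALB was counted. AFB1_CUR replicate 3 held 30 AGT counts and no ALB count. ALB itself was called lower in AFB1_CUR than in AFB1 (log2 fold change -3.75, SE 1.34, unadjusted p = 0.0143, adjusted p = 0.99999 by edgeR), the 1 hepatocyte marker called of 10 tested. The hepatocyte marker APOA1 had 769 and 1329 counts in AFB1 replicates 2 and 3. Both lay within the 113 to 1540 counts of the other kidney libraries, against 103450 in the liver-like library. The score of the 15 hepatocyte markers was highest of the 14 libraries in AFB1 replicates 2 and 3 (3.00 and 2.68). Its relation to AGT did not pass (Pearson's r = 0.476, Spearman's rho = 0.270, adjusted permutation p = 0.152 for r). Whether liver RNA contributed to AGT in AFB1 replicates 2 and 3 was not tested.

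**Figure D2:**
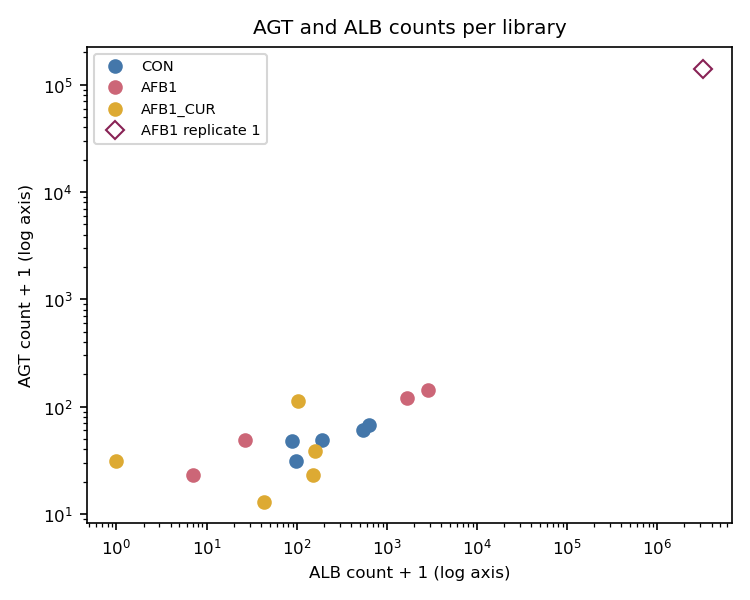
AGT counts (vertical axis) against ALB counts (horizontal axis) per library, both plus 1 on log axes, coloured by diet. The library labelled AFB1 replicate 1 lies in the upper right corner with 141087 AGT counts, and the 14 other libraries lie between 12 and 143 AGT counts.

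In this and the following genes, values are listed from replicate 1 to 5 in CON and AFB1_CUR and from replicate 2 to 5 in AFB1. ACE (chromosome 11, 47527344 to 47548182, plus strand), the enzyme that forms angiotensin II, was read at 13.1, 10.3, 6.10, 14.4 and 33.2 FPKM in CON. The AFB1 values were 7.42, 10.5, 5.59 and 18.3 FPKM, and those of AFB1_CUR were 17.8, 5.75, 8.73, 14.3 and 12.4 FPKM. CON replicate 5 was the highest library and the other 13 lay between 5.59 and 18.3 FPKM with complete overlap of the groups. The means were 15.4 ± 10.4 (SD, n = 5), 10.5 ± 5.63 (SD, n = 4) and 11.8 ± 4.72 (SD, n = 5) FPKM. The log2 fold change was -0.54 (SE 0.50, 95% interval -1.61 to 0.53) for AFB1 against CON and ranged from -1.04 without AFB1 replicate 5 to -0.05 without CON replicate 5. It was 0.10 (SE 0.49) for AFB1_CUR against AFB1 and -0.44 (SE 0.47) for AFB1_CUR against CON.

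AGTR1 (chromosome 1, 240219591 to 240272481, minus strand), the receptor through which angiotensin II constricts vessels and promotes sodium retention, lay between 3.11 and 6.40 FPKM in the 14 libraries. Its values were 4.29, 5.47, 4.53, 3.28 and 3.23 FPKM in CON, 4.33, 5.21, 5.37 and 3.11 FPKM in AFB1 and 4.92, 4.80, 4.60, 4.32 and 6.40 FPKM in AFB1_CUR. The groups overlapped, with AFB1_CUR replicate 5 the highest. The log2 fold change was 0.11 (SE 0.17, 95% interval -0.26 to 0.48) for AFB1 against CON, 0.09 (SE 0.17) for AFB1_CUR against AFB1 and 0.20 (SE 0.16) for AFB1_CUR against CON. With the liver-like library included, AGTR1 was called higher in AFB1 than in CON (log2 fold change 1.03, SE 0.45, unadjusted p = 0.0386). That call rests on this 1 library, and in that fit 3.84% of tested genes were called higher.

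ANPEP (chromosome 18, 20514993 to 20531871, minus strand) encodes aminopeptidase N, which removes neutral residues from the amino end of small peptides, angiotensin III among them. It was read at 87.1, 97.8, 89.5, 156 and 218 FPKM in CON, at 41.2, 89.4, 34.7 and 87.2 FPKM in AFB1 and at 87.6, 52.4, 66.4, 38.9 and 62.4 FPKM in AFB1_CUR. CON replicates 4 and 5 lay above all other libraries, and the remaining 3 CON libraries (87.1 to 97.8 FPKM) were level with the upper AFB1 and AFB1_CUR libraries. The groups therefore overlapped: AFB1 replicates 3 and 5 and AFB1_CUR replicate 1 exceeded the lowest CON value, by little. The means were 129.7 ± 56.9 (SD, n = 5) in CON, 63.1 ± 29.2 (SD, n = 4) in AFB1 and 61.5 ± 18.0 (SD, n = 5) in AFB1_CUR.

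A gene was called where edgeR's quasi-likelihood test gave an unadjusted p below 0.05 and the fold change exceeded 1.5, the limits by which the study screened its genes. For AFB1 against CON, the log2 fold change of ANPEP was -1.03 (SE 0.38, 95% interval -1.85 to -0.22, unadjusted p = 0.0169, Benjamini-Hochberg adjusted p = 0.957 by edgeR). Of all tested genes, 1.76% were called in either direction and 1.11% were called lower. For AFB1_CUR against CON, the log2 fold change was -1.14 (SE 0.36, 95% interval -1.91 to -0.38, unadjusted p = 0.00622, adjusted p = 0.823 by edgeR), again the 1 member called of 5, with 1.63% of tested genes called and 0.577% called lower. These comparisons share the CON libraries, so the high values of CON replicates 4 and 5 enter both. Between AFB1_CUR and AFB1 the log2 fold change of ANPEP was -0.11 (SE 0.37, 95% interval -0.91 to 0.69, unadjusted p = 0.770), and 0 of 5 members were called, with 0.935% of tested genes called. That interval leaves room for a difference of about the size seen against CON in the lower direction and does not show that both toxin-fed groups had the same level.

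The ANPEP call between AFB1 and CON was sensitive to single sheep. It was lost by edgeR without CON replicate 5 (log2 fold change -0.76, unadjusted p = 0.0542), without AFB1 replicate 2 (-0.85, unadjusted p = 0.0537) and without AFB1 replicate 4 (-0.83, unadjusted p = 0.0553). It held in the other 19 of 22 settings, which include DESeq2 and limma. The call between AFB1_CUR and CON held in 22 of 22, with log2 fold changes from -1.34 to -0.87. These settings include leaving out each library of the group not compared, which could hardly move the estimate (-1.03 for AFB1 against CON and -1.14 for AFB1_CUR against CON each time). By edgeR 0 genes passed an adjusted p of 0.05 in any of the 3 comparisons (664, 303 and 723 genes had an unadjusted p under 0.05), whereas DESeq2 gave 17, 3 and 1 gene, and ANPEP stayed above it in all settings (lowest adjusted p 0.433 and 0.400 against CON).

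**Figure D3:**
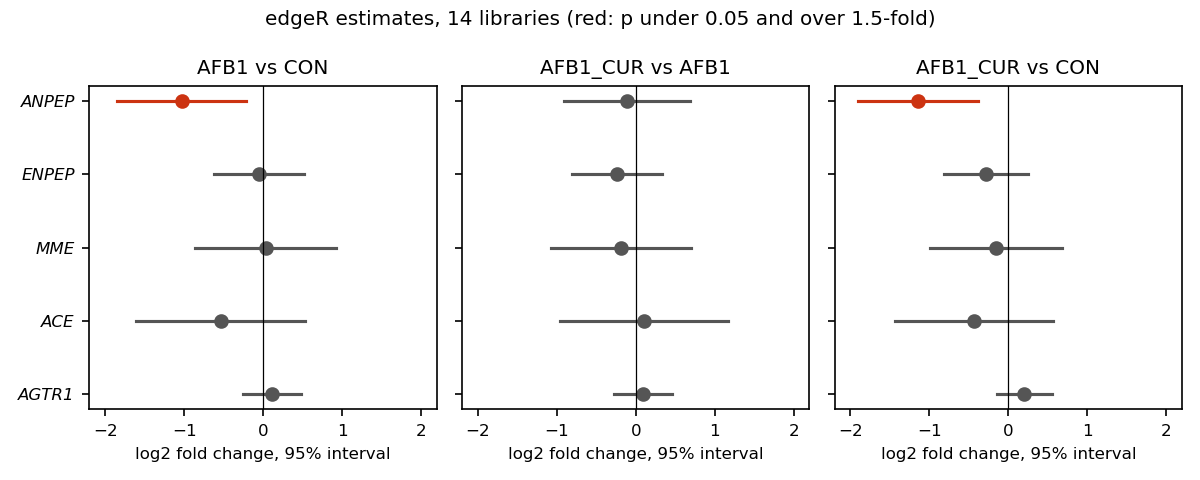
Log2 fold changes of the 5 tested members in the 3 comparisons with their 95% intervals, from edgeR over 14 libraries. The interval of ANPEP lies below 0 for AFB1 against CON (-1.85 to -0.22) and for AFB1_CUR against CON (-1.91 to -0.38), and all other intervals contain 0.

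ENPEP (chromosome 6, 15270073 to 15350714, minus strand), the aminopeptidase that removes the acidic first residue of angiotensin II, was read at 35.6, 50.0, 36.8, 37.0 and 76.6 FPKM in CON. The AFB1 values were 31.7, 43.9, 45.3 and 59.0 FPKM and those of AFB1_CUR 46.3, 29.9, 37.8, 43.5 and 43.8 FPKM. CON replicate 5 was again the highest, and the rest of CON lay within the range of the toxin-fed libraries. The means were 47.2 ± 17.4 (SD, n = 5), 45.0 ± 11.2 (SD, n = 4) and 40.3 ± 6.57 (SD, n = 5) FPKM, and the log2 fold change for AFB1 against CON was -0.05 (SE 0.27, 95% interval -0.62 to 0.52). It was -0.24 (SE 0.26) for AFB1_CUR against AFB1 and -0.28 (SE 0.25) for AFB1_CUR against CON. ENPEP thus did not pass the test, and the difference between both genes' fold changes was not tested.

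MME (chromosome 1, 233225308 to 233333812, minus strand), a metalloprotease that also degrades bradykinin and natriuretic peptides, was read at 13.1, 17.6, 18.6, 20.5 and 27.0 FPKM in CON. The AFB1 values were 10.5, 14.1, 14.7 and 37.5 FPKM and those of AFB1_CUR 26.0, 8.93, 19.3, 21.6 and 13.7 FPKM. AFB1 replicate 5 was the highest library of all, while the other 3 AFB1 libraries lay in the lower part of the CON range or below it. The means were close (19.3 ± 5.07, n = 5, then 19.2 ± 12.3, n = 4, then 17.9 ± 6.71, n = 5, all SD), and the log2 fold change for AFB1 against CON was 0.03 (SE 0.41, 95% interval -0.86 to 0.92). It was -0.19 (SE 0.41) for AFB1_CUR against AFB1 and -0.15 (SE 0.39) for AFB1_CUR against CON. Without AFB1 replicate 5 it was -0.60 (SE 0.35, unadjusted p = 0.106 by edgeR) for AFB1 against CON. The sign for AFB1 against CON depended on the processing too: it was -0.11 to -0.29 with the replicate number as a block, with limma on log2(FPKM + 0.1) or log2(FPKM + 1), and with all 15 libraries.

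Several members varied together between sheep. Over 15 pairs of members and 14 libraries, Pearson's r of log2(FPKM + 1) passed a Benjamini-Hochberg adjusted permutation p of 0.05 in 5 pairs. Over the 3 diets together, the closest pair was ACE with ENPEP (r = 0.746, rho = 0.538, permutation p = 0.00233, adjusted p = 0.0181), followed by ENPEP with MME (r = 0.739, rho = 0.688, permutation p = 0.00242, adjusted p = 0.0181). ACE was also related to MME (r = 0.699, rho = 0.710, permutation p = 0.00558, adjusted p = 0.0209) and to ANPEP (r = 0.667, rho = 0.495, permutation p = 0.00975, adjusted p = 0.0292). ACE and the brush-border enzymes in these pairs thus tended to be high in the same sheep, whereas AGT with MME ran in the opposite direction (r = -0.695, rho = -0.640, permutation p = 0.00506, adjusted p = 0.0209). By Spearman's rho 0 pairs passed after adjustment, with a smallest adjusted permutation p of 0.0616. The pair ACE and ANPEP rested on CON replicate 5 and AFB1 replicate 4, since r was 0.324 without them, and the pair AGT and MME had r = -0.441 without AFB1 replicate 2 and AFB1_CUR replicate 2. The 3 pairs among ACE, ENPEP and MME had r between 0.668 and 0.708 without the 2 most distant libraries, and r was 0.776, 0.742 and 0.699 for ACE with ENPEP, ENPEP with MME and ACE with MME after the group means were removed. The number of pairs past the threshold was 2 without CON replicate 5 and 0 without AFB1_CUR replicate 2. AGTR1 passed with no other member.

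**Figure D4:**
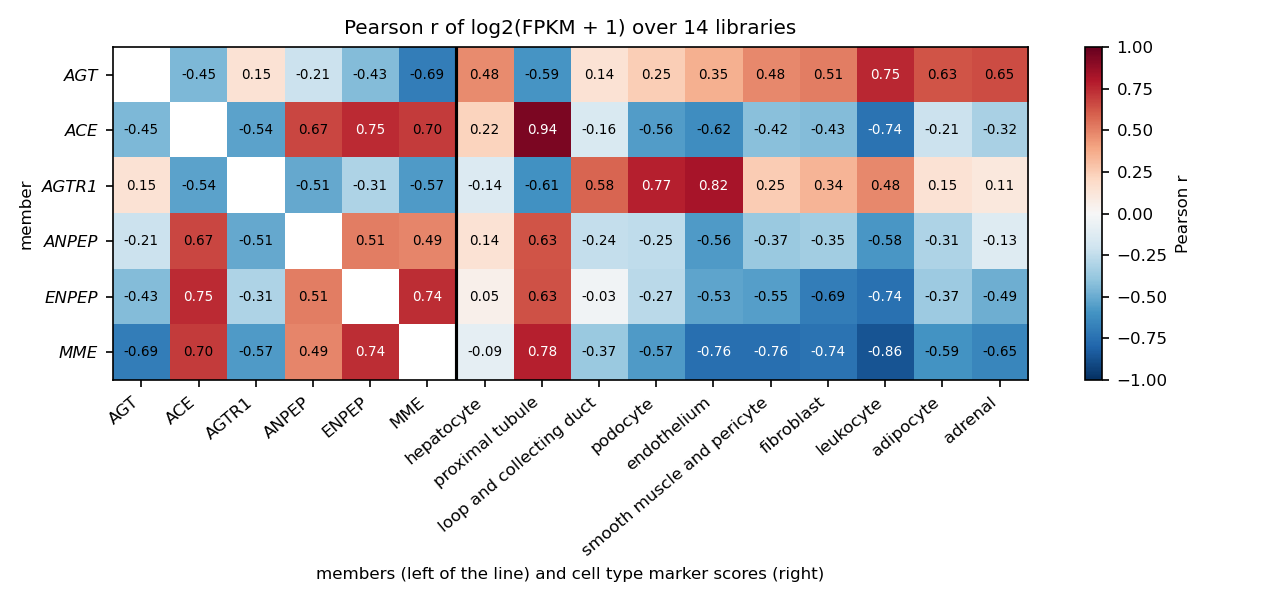
Pearson's r of log2(FPKM + 1) over 14 libraries, as a colour scale from -1 to 1, between the members (left of the line) and between each member and the 10 cell type marker scores (right). ACE, ANPEP, ENPEP and MME form a block of positive values (up to 0.746), and AGT is negative with MME (-0.695).

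The shared variation moved with markers of the kidney's cell types, which were listed separately from the members. Of 60 relations between the 6 members and 10 marker scores, the closest was that of ACE with the proximal tubule score (r = 0.940, rho = 0.943, permutation p = 1e-05, the smallest 100000 resamples can give, adjusted p = 0.0006). It was 0.915 without the 2 most distant libraries and 0.937 within groups. MME followed the same score (r = 0.780, rho = 0.776, permutation p = 0.00115, adjusted p = 0.0143) and was negatively related to the leukocyte score (r = -0.864, rho = -0.899, permutation p = 3e-05, adjusted p = 0.0009). ACE had a negative relation to that score too (r = -0.740, rho = -0.776, permutation p = 0.00256, adjusted p = 0.0171), and ENPEP was negatively related to the leukocyte score (r = -0.745, rho = -0.495, permutation p = 0.00359, adjusted p = 0.0215) and to the fibroblast score (r = -0.689, rho = -0.604, permutation p = 0.00772, adjusted p = 0.0386). Without the 2 most distant libraries these were -0.792 for ACE and, for ENPEP, -0.630 and -0.525. By Spearman's rho the ENPEP relations to the leukocyte and fibroblast scores did not pass (adjusted permutation p of 0.224 and 0.105). MME also passed, in the negative direction, with the smooth muscle and pericyte (r = -0.755), endothelium (r = -0.755), fibroblast (r = -0.742) and adrenal (r = -0.651) scores, at adjusted permutation p of 0.0164, 0.0155, 0.0164 and 0.0485. By Spearman's rho none of those passed (adjusted permutation p of 0.072, 0.0667, 0.0794 and 0.141). Without the 2 most distant libraries their r was -0.616, -0.503, -0.485 and -0.257, against 0.799 for MME with the proximal tubule score and -0.808 with the leukocyte score. AGTR1 was related to the endothelium score (r = 0.820, rho = 0.714, permutation p = 0.0003, adjusted p = 0.006) and to the podocyte score (r = 0.774, rho = 0.837, permutation p = 0.00119, adjusted p = 0.0143), with r of 0.656 and 0.678 without the 2 most distant libraries. In bulk kidney RNA, fewer cells of a type and less RNA per cell cannot be told apart. Marker scores and members come from the same libraries and so share depth and composition.

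ENPEP (r = 0.633, rho = 0.490, permutation p = 0.0133, adjusted p = 0.057) and ANPEP (r = 0.630, rho = 0.459, permutation p = 0.0148, adjusted p = 0.0592) did not pass with the proximal tubule score. Without the 2 most distant libraries r was 0.623 for ENPEP and 0.331 for ANPEP. The proximal tubule score itself ranged from 6.99 to 8.27 in CON, 6.44 to 8.04 in AFB1 and 6.53 to 7.87 in AFB1_CUR, and the summed level of its 9 markers from 1540 to 3127, 1142 to 3027 and 1081 to 2525 FPKM. Of the 9 markers 0 were called, but the estimate was below CON in 8 of 9 in AFB1 (median log2 fold change -0.37) and in 9 of 9 in AFB1_CUR (median -0.26), where the median log2 fold change over all tested genes was within 0.02 of 0. The part of the proximal tubule share in the lower ANPEP values was not tested. Leukocyte markers had higher estimates than CON in 8 of 8 in AFB1 (median 0.64, 0 called) and in 8 of 8 in AFB1_CUR (median 0.75, with the macrophage marker CD68 called at 1.95, SE 0.89, unadjusted p = 0.0455, and at 1.95, SE 0.99, unadjusted p = 0.0671 with all 15 libraries), with the highest scores in AFB1_CUR replicate 2 (5.28) and AFB1 replicate 2 (4.66), which were also the libraries with the most AGT. Fibroblast markers had higher estimates in AFB1_CUR in 6 of 6 against CON (median 0.60, 0 called) and in 6 of 6 against AFB1 (median 0.73, with LUM called at 0.73, SE 0.31), and in AFB1 against CON in 2 of 6 (median -0.11). Their summed level was 103 to 196 FPKM in CON, 78.7 to 233 in AFB1 and 137 to 451 in AFB1_CUR, and their part in the ANPEP values was not tested either. The fibroblast score was 6.06 in AFB1_CUR replicate 2. In the other AFB1_CUR libraries it was 4.32 to 4.84, within the CON range of 3.96 to 4.92. Without AFB1_CUR replicate 2 and AFB1 replicate 2 the relation of AGT to the leukocyte score was r = 0.317, against 0.752 (rho = 0.596, adjusted permutation p = 0.0243 for r) with them. By Spearman's rho that relation did not pass (adjusted permutation p = 0.112).

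**Figure D5:**
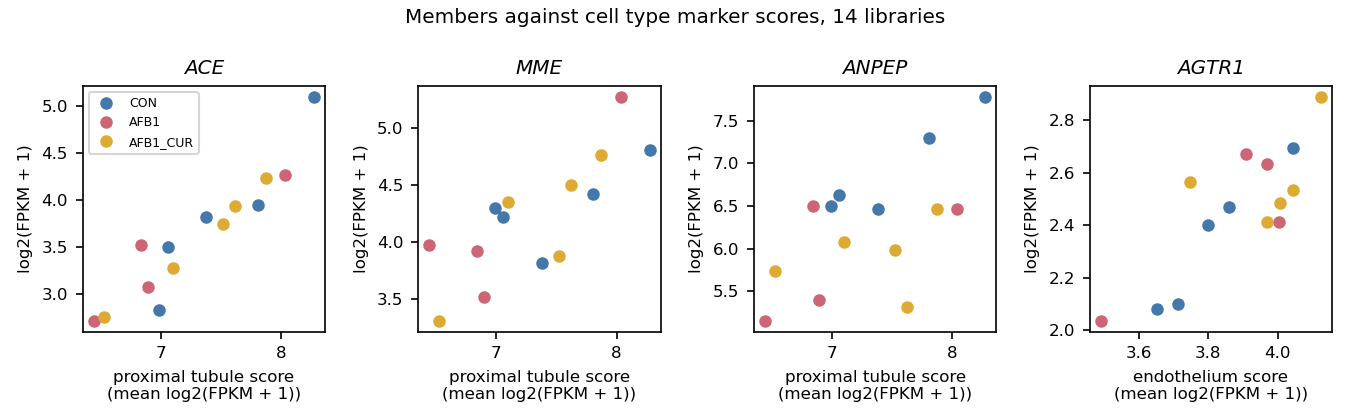
Members against marker scores over 14 libraries, all as log2(FPKM + 1): ACE, MME and ANPEP against the proximal tubule score and AGTR1 against the endothelium score, coloured by diet. ACE lies closest to a line (r = 0.940), and ANPEP scatters most of these 4 (r = 0.630), with the CON libraries in the upper part.

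The genes most like each member (2 or 3 each) across the 14 libraries, out of 13157 others tested and ranked by Pearson's r of log2(FPKM + 1), are given as a description with no test. MME was closest to CLCN5 (r = 0.976, rho = 0.938), an endosomal chloride transporter of the proximal tubule, then DPYD (r = 0.965, rho = 0.960) and RAB3GAP2 (r = 0.957, rho = 0.943). ACE was closest to the solute carriers SLC27A2 (r = 0.957, rho = 0.947), SLC22A4 (r = 0.954, rho = 0.925) and SLC16A4 (r = 0.943, rho = 0.991), and SLC27A2 is itself a member of the proximal tubule marker list. AGTR1 was closest to DLC1 (r = 0.903, rho = 0.921), TBX3 (r = 0.889, rho = 0.943) and LOC101115554 (r = 0.879, rho = 0.956). The aminopeptidases had looser companions. For ANPEP these were the peroxisomal oxidase ACOX3 (r = 0.882, rho = 0.732) and ROPN1L (r = 0.836, rho = 0.802), and for ENPEP they were HRG (r = 0.864, rho = 0.771), IYD (r = 0.862, rho = 0.842) and A1CF (r = 0.852, rho = 0.793). AGT was closest to ISG20 (r = 0.925, rho = 0.947), an interferon-stimulated exonuclease, and ERAP2 (r = 0.906, rho = 0.789), which trims peptides for antigen presentation.

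The rest of the pathway was examined in a list of 17 further genes, of which 13 were matched by symbol and 11 were tested. None was called for AFB1 against CON or AFB1_CUR against CON, and 1 was called lower for AFB1_CUR against AFB1, as were 0.524% of tested genes. The type 2 receptor AGTR2 (0 to 0.193 FPKM) and the angiotensin-(1-7) receptor MAS1 (0 to 0.192 FPKM) were too low to be tested.

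The called pathway gene was KLK1, tissue kallikrein, a distal tubule protease that releases kinins. Its mean was 337 ± 70.4 (SD, n = 5) FPKM in CON, 458 ± 197 (SD, n = 4) in AFB1 and 278 ± 59.8 (SD, n = 5) in AFB1_CUR, with overlapping ranges. It was called lower in AFB1_CUR than in AFB1 (log2 fold change -0.79, SE 0.28, unadjusted p = 0.0132, adjusted p = 0.99999 by edgeR) in 20 of 22 settings, the exceptions being all 15 libraries (-0.47, SE 1.02, unadjusted p = 0.657) and the set without AFB1 replicate 4. Against CON, KLK1 was called for AFB1 in 1 of 22 settings and for AFB1_CUR in 0 of 22.

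Among 8 tested genes that control secretion by the juxtaglomerular cells, ADRB1, the β1-adrenergic receptor of those cells, was called in both comparisons that involve the AFB1 group, higher in AFB1 than in CON (as were 0.653% of tested genes) and lower in AFB1_CUR than in AFB1. Its mean was 1.43 ± 0.428 (SD, n = 5) FPKM in CON, 2.68 ± 1.31 (SD, n = 4) in AFB1 and 1.42 ± 0.385 (SD, n = 5) in AFB1_CUR. AFB1 ranged from 1.14 to 3.78 FPKM and overlapped CON (1.004 to 2.14 FPKM) and AFB1_CUR (0.911 to 1.78 FPKM). The log2 fold change was 0.90 (SE 0.33, unadjusted p = 0.0172, adjusted p = 0.957 by edgeR) for AFB1 against CON and -0.97 (SE 0.33, unadjusted p = 0.0119, adjusted p = 0.99999 by edgeR) for AFB1_CUR against AFB1. Both comparisons use the same 4 AFB1 libraries. The first call held in 18 of 22 settings and was lost without AFB1 replicate 3, without AFB1 replicate 4, in the fit blocked by replicate number, and by limma on the log2(FPKM + 1) scale. The second held in 20 of 22 and was lost without AFB1 replicate 4 and with that limma scale.

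Related gene groups held no further call over the 14 libraries. Of 8 tested brush-border peptidases other than the members and of 8 tested relatives of the M1 and M13 peptidase families, 0 were called in each comparison, with median log2 fold changes of -0.15 and 0.04 for AFB1 against CON. The 8 genes of aldosterone action, among them the mineralocorticoid receptor NR3C2 and subunits of the epithelial sodium channel, were also called in none. Their estimates were higher in AFB1 than in CON for 7 of 8 (median 0.20) and lower in AFB1_CUR than in AFB1 for 8 of 8 (median -0.26). These 2 comparisons share the AFB1 libraries. For AFB1_CUR against CON, 2 of 8 were higher and 6 of 8 lower (median -0.06). Of 5 kallikrein and kinin genes tested over 14 libraries, KLK1 alone was called. With all 15 libraries, 3 of 6 were called higher in AFB1 than in CON and lower in AFB1_CUR than in AFB1. These were CPN1 (log2 fold change 5.19 and -5.62), CPN2 (2.74 and -3.20) and KNG1 (3.26 and -3.54), plasma proteins made in the liver, and those calls rest on the library labelled AFB1 replicate 1.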

How the data were processed

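The mRNA of 15 libraries labelled kidney was measured (poly(A) selection, dUTP strand marking, paired-end 150 bp). Per the submitters' processing notes, cutadapt 1.9, HISAT2 2.2.1, StringTie 2.1.6, DESeq2 and edgeR were used. No source used here names the counting tool or the genome build. A single deposited table holds, for each gene and library, the authors' unnormalised read counts and the authors' FPKM, which are scaled to transcript length and depth. Both were used as deposited. Samples were grouped by the diet in their labels.

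Members were taken by symbol, and the members and gene lists were chosen with earlier results of these data known. Genes were kept where 5 or more libraries reached an FPKM of 1. The main test was edgeR 4.0.16 (R 4.3.3), quasi-likelihood, TMM scaling (factors 0.908 to 1.20), 1 model over 14 libraries, without the library labelled AFB1 replicate 1. Calls needed an unadjusted p below 0.05 with a fold change exceeding 1.5, and Benjamini-Hochberg values were computed over 13162 genes. All tests were two-sided. Alternatives were DESeq2 1.42.0, limma 3.58.1 on log2(FPKM + 1) and log2(FPKM + 0.1), DESeq2-type size factors (RLE), no filter, all 15 libraries, only the compared groups, the replicate number as a block and each library left out. Correlations used 100000 permutations (scipy 1.17.1). The fits were tested on simulated counts.

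Named genes were the members, every called gene of the lists (further pathway genes, brush-border peptidases, M1 and M13 relatives, aldosterone targets, juxtaglomerular control genes, kallikrein-kinin genes and markers of 10 cell types) and the 3 genes most like each member. A few genes that this rule names are not reported here. Called markers are those of the fit over 14 libraries. AGTR2 and MAS1 were named beside a result that turns on them, after their values were seen.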

Additional observations from a re-analysis of the deposited data

Results flagged for a closer look

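Of 18 sets of values (6 members in 3 groups, without the library labelled AFB1 replicate 1), 3 held a library far from the others by Dixon's test, where chance gives about 1 in 20. MME stood at 37.5 FPKM in AFB1 replicate 5, above 10.5 to 14.7 FPKM in the other 3 AFB1 libraries, and its log2 fold change for AFB1 against CON was 0.03 with this library and -0.60 without it. AGTR1 stood at 6.40 FPKM in AFB1_CUR replicate 5, above 4.32 to 4.92 FPKM. AGT stood at 0.325 FPKM in AFB1_CUR replicate 2, the library with the highest leukocyte score (5.28). With the library labelled AFB1 replicate 1 added to its group, AGT (411 FPKM) and AGTR1 (14.9 FPKM) in that library were far from the others too. The causes were not tested.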

How the results depend on the processing

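The ANPEP calls against CON held with DESeq2, limma, RLE scaling, no filter, only the compared groups, all 15 libraries and the replicate block (log2 fold changes with the block -1.08, -0.06 and -1.14 for AFB1 against CON, AFB1_CUR against AFB1 and AFB1_CUR against CON). Same-numbered libraries did not deviate together in every pair (r from -0.279 to 0.552). For those numbered 2, r was 0.373 (AFB1 against CON), 0.552 (AFB1_CUR against AFB1) and 0.382 (AFB1_CUR against CON). Whether same-numbered samples share more than a number was not tested. The replicate block gave 228, 150 and 282 called genes, and 4 of 8, 3 of 8 and 2 of 10 libraries correlated best with their own number. With all 15 libraries, 2 members were called for AFB1 against CON. With 1 library left out they numbered 0 to 1 (AFB1 against CON), 0 (AFB1_CUR against AFB1) and 1 (AFB1_CUR against CON). Called genes in all (232, 123 and 214) were 639, 525 and 131 with all 15 libraries, 867, 707 and 928 without the filter, 105, 81 and 80 with limma on log2(FPKM + 1), and 204 to 454, 119 to 261 and 115 to 305 with 1 library left out. Correlated pairs (5) were 14 with all 15 libraries, 0 by Spearman's rho and 0 to 6 with 1 library left out.

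None of the sign changes below concerned a call. For AFB1 against CON, MME was -0.29 with all 15 libraries, -0.14 and -0.15 with limma (pseudocounts 1 and 0.1) and -0.11 with the block. For AFB1_CUR against AFB1, ANPEP was 0.0381 and 0.0400 with limma, and with all 15 libraries AGTR1 was -0.82, ENPEP 0.0563 and MME 0.14. With 1 library left out, log2 fold changes for AFB1 against CON ranged from -0.60 to 0.26 (MME), -0.27 to 0.20 (ENPEP) and -0.00355 to 0.22 (AGTR1). For AFB1_CUR against AFB1 they ranged from -0.12 to 0.60 (ACE), -0.0179 to 0.21 (AGTR1), -0.31 to 0.15 (ANPEP) and -0.41 to 0.45 (MME). For AFB1_CUR against CON they ranged from -0.66 to 0.0557 (ACE) and -0.35 to 0.0449 (MME). The causes were not tested. Groups of 4 or 5 sheep leave intervals of about 1 on either side for ACE, and AGT at 12 to 143 counts limits any statement on it.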
